A study of Mus musculus with 12 samples.

Results

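Cytosolic ribosomal proteins are the protein parts of the ribosomes that translate nuclear messages. Their genes were taken by name (Rpl or Rps followed by a number, with Rplp0, Rplp1, Rplp2 and Rpsa) and by a mean RPKM over 1 in 12 mouse tumors, where RPKM relates the reads of a gene to its exonic length and to all mapped reads. The names matched 85 of 22630 genes and 84 passed the level. Rpl10l, listed at 0 RPKM, stayed out, and Rpl3l, with a mean of 1.30 RPKM, was the lowest gene kept. Of the 84 genes, 51 encode proteins of the large subunit and 33 of the small subunit. They include 7 paralogs, which are extra genes for a close relative of a core protein (Rpl3l, Rpl7l1, Rpl22l1, Rpl36al, Rpl39l, Rps4y2 and Rps27l). The 84 genes are spread over 19 chromosomes, with 14 on chromosome 7 and 8 on chromosome 17. Fau, which encodes a ribosomal protein fused to a ubiquitin-like part, carries another name and was counted apart.

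The tumors grew under the skin from KCip53-1, a mouse pancreatic cancer line. KCip53-1 is 1 line, sorted by its dsRed reporter from a mouse with Ptf1a-Cre, rtTa from the R26 locus and the TREp53 transgene, so that doxycycline (dox) switches on mutant p53 R270H in cells that have gone through Cre. The hosts of all 3 groups were NSG mice of 8 to 10 weeks, a strain without mature lymphocytes, and 500000 cells were injected per tumor. Mice of the no-dox group never received dox, and those of the plus-dox group had it in their water (0.2 g/l with 5% sucrose) for 36 days. For off-dox, the labels give 33 days on dox followed by 3 days off, while the study describes removal when tumors could be felt. Each group held 4 tumors. RNA came from whole, unsorted tumors, so fewer cells of a type and less RNA per cell cannot be told apart. Each mouse bore 2 tumors and the pairs are not given, so every p-value assumes tumors from separate mice and is too small where that fails.

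Ribosomal protein genes are among the most strongly expressed genes of growing cells, and most of their products are needed in equal numbers. Most of their messages begin with a C followed by a run of pyrimidines, the terminal oligopyrimidine (TOP) tract, through which the mTORC1 kinase, acting by the Larp1 protein, turns their translation on or off. When ribosome assembly fails, free Rpl5 and Rpl11 bind Mdm2, the ubiquitin ligase of p53, and p53 rises. Rps27l is a known target gene of p53. In the KCip53 lines whose p53 it sequenced, the paper found the mutant DNA alone and reports the normal sequence as lost.

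The TOP tracts at the annotated start of 6 of the genes are shown because they are the sequence feature these messages are known to share. Each line gives 25 bases of mm9 (NCBIM37) in the direction of transcription, 10 before the start of the RefSeq gene in the deposited files and 15 from it, with the tract in capitals.
Rpl15 (chr14:19103486-19103510, minus strand): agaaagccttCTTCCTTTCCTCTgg
Rpl35 (chr2:38860637-38860661, minus strand): ccgccctttcCTCTTTCTCTCgaac
Rpl32 (chr6:115758747-115758771, minus strand): ccgcctcttcCTTCTTCCTCggcgc
Rps6 (chr4:86503257-86503281, minus strand): gaagtcgggcCTCTTTTTCgtgacg
Rpl11 (chr4:135609272-135609296, minus strand): gtctccctctCTCTTCCTgttctcc
Rps27 (chr3:90017556-90017580, minus strand): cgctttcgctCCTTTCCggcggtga
The longest of these tracts is the one of Rpl15. A C with at least 4 more pyrimidines (C or T) stood exactly at the annotated start of 15 of the 84 genes, or 17.9%, against 2.3% of 14586 genes expressed over 0.25 RPKM. Allowing the start to lie up to 3 bases away, the counts were 30 genes, or 35.7%, against 11.9%. Annotated starts can be off by a few bases, and a gene without the letters in this window may still have a tract.

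Counted reads summed to 19845871 to 33137593 per tumor. Genes took 88.4% to 89.4% of mapped reads in no-dox, 82.2% to 87.1% in plus-dox and 81.1% to 85.8% in off-dox tumors, so no-dox stood apart in it. Over whole profiles, plus-dox 2 and off-dox 4 stood apart on the first principal component, with scores of 102 and 66.9 against −43.5 to 6.23 for the other 10 tumors. Summed epithelial markers (8 of 8 measured, none at or near 0) came to 2280 to 3033 RPKM in no-dox, 1363 to 2003 in plus-dox and 1048 to 2608 in off-dox. Summed fibroblast markers (9 of 9 measured) came to 1133 to 2063, 1646 to 3135 and 1290 to 1552 RPKM in the same order. The part of these differences in the results below was not tested. Trp53, the gene of the transgene, lay between 40.1 and 57.4 RPKM in all 12 tumors with overlapping groups, so that it did not mark the groups, and reads of the transgene cannot be told apart from those of the mouse's own Trp53.

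Ribosomal protein messages made up 7.01% to 10.0% of the counted reads of a tumor. Among the 77 genes that are no paralogs, mean levels ran from 83.6 RPKM for Rps15a to 3423 RPKM for Rps12, with a median of 1094 RPKM, and 45 genes exceeded 1000 RPKM. By RPKM, 65 of the 100 highest genes of these tumors were ribosomal protein genes. The 5 highest were Rps12, Rpl41, Rps18, Rps14 and Rpl13a. Rps12, a small subunit protein, had 3149, 2739, 3638 and 3325 RPKM in the no-dox tumors, 3897, 2749, 3635 and 3009 in plus-dox and 3959, 3103, 5106 and 2767 in off-dox. All 3 groups overlapped, with off-dox 3 as the highest tumor. At the other end, Rps15a is counted over an exonic model of 5134 bp, against a median of 706.5 bp for the 84 genes, which lowers its value per length.

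**Figure D1:**
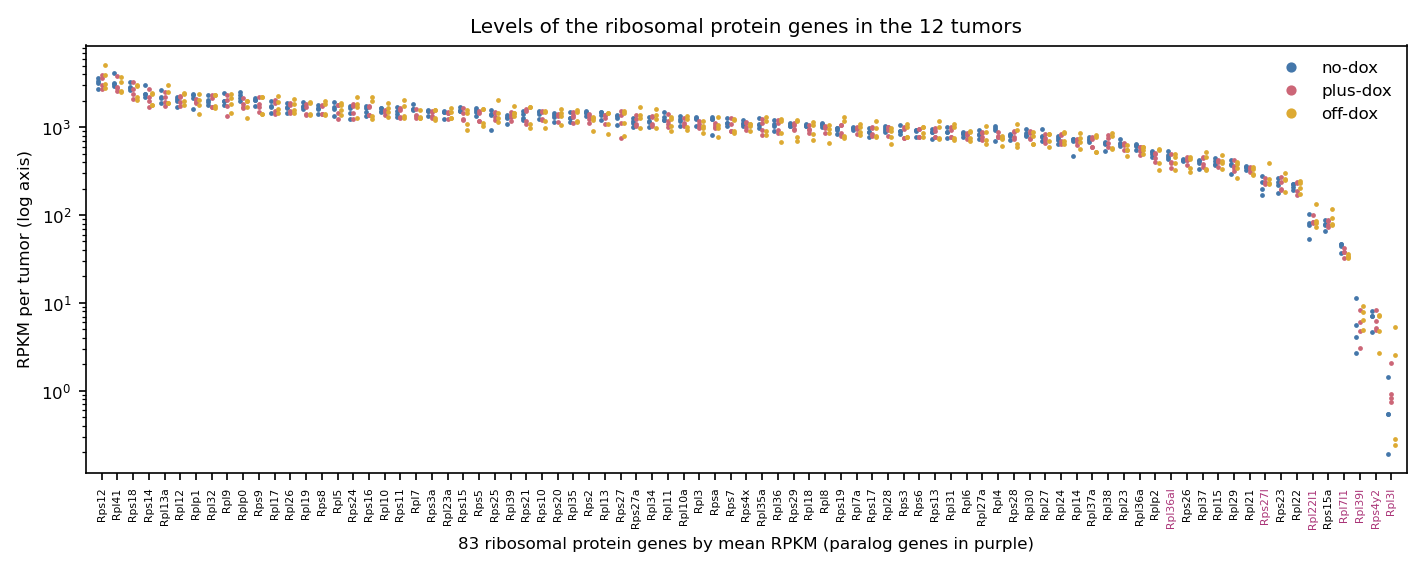
RPKM (log axis) of 83 of the 84 ribosomal protein genes in each of the 12 tumors, 1 point per tumor, ordered by mean RPKM, with no-dox in blue, plus-dox in red and off-dox in yellow and paralogs named in purple. Most genes lie near 1000 RPKM with the 3 groups on top of one another, and Rpl39l, Rps4y2 and Rpl3l lie 2 to 3 powers of 10 lower.

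Taken as 1 class, the genes did not separate the groups. Their share of counted reads was 8.20%, 7.10%, 8.88% and 8.18% in the no-dox tumors, 8.79%, 7.20%, 8.70% and 7.29% in plus-dox, and 8.91%, 7.01%, 10.0% and 7.11% in off-dox. The means were 8.09% ± 0.73, 7.99% ± 0.87 and 8.27% ± 1.46 (SD, n = 4), so the groups differed by less than their own spread. Taken over all mapped reads, the shares were 7.20% ± 0.66, 6.78% ± 0.74 and 6.87% ± 1.20. The large and the small subunit gave the same picture, with 4.77% ± 0.42, 4.68% ± 0.46 and 4.78% ± 0.77 of counted reads for the large and 3.32% ± 0.31, 3.32% ± 0.41 and 3.48% ± 0.69 for the small subunit.

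The tumors of a group differed more than the groups. The median over the 84 genes of the deviation from each gene's mean, on the log2 CPM scale (CPM scales counts to a common library size), was 0.24 in off-dox 3, 0.21 in no-dox 3, 0.15 in off-dox 1 and 0.14 in plus-dox 3. At the low end stood off-dox 2 at −0.23, plus-dox 4 at −0.22, no-dox 2 at −0.20 and off-dox 4 at −0.15. Each group thus held tumors above and below the mean, and the group means of these medians were 0.023, −0.022 and 0.003 for no-dox, plus-dox and off-dox. Off-dox 3 was the highest of the 12 tumors for 35 of the 84 genes and no-dox 3 for 27, whereas off-dox 2 was the lowest for 39 and no-dox 2 for 22. In plus-dox 4, 3 of 84 genes lay above their mean, and in no-dox 3 it was 83. The genes share each library's depth and scaling, so they are not independent of one another.

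**Figure D2:**
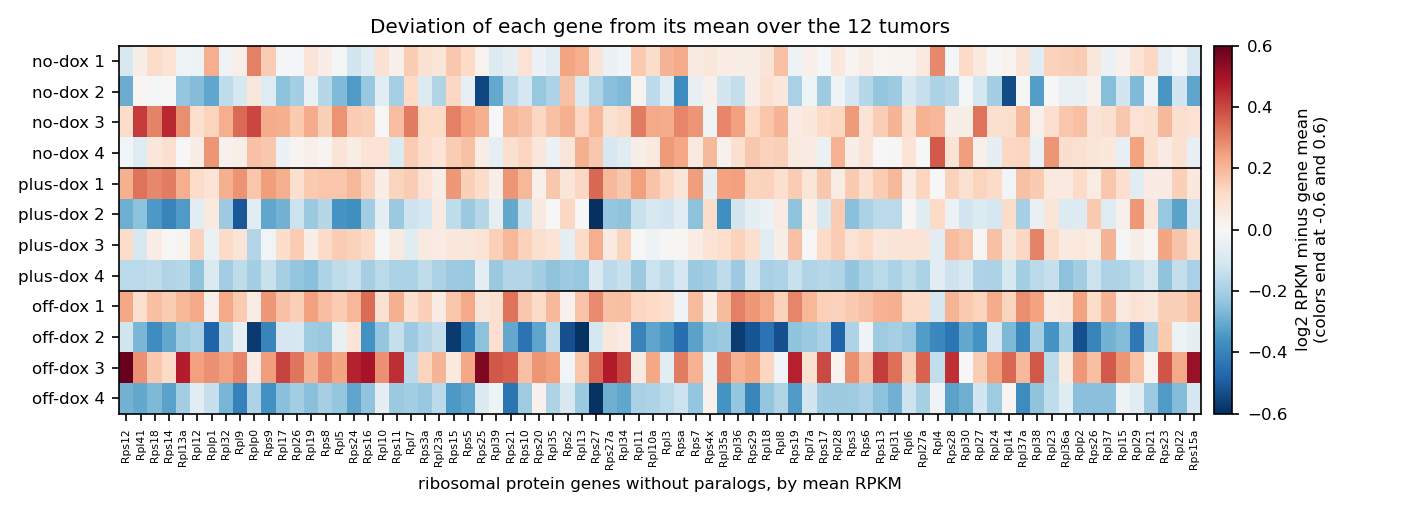
Log2 RPKM of 76 of the 77 ribosomal protein genes that are no paralogs minus its mean over the 12 tumors, with 1 row per tumor, genes in columns by mean RPKM and black lines between the groups. Whole rows run red (no-dox 3, off-dox 3) or blue (plus-dox 4, off-dox 2, off-dox 4) inside a group, Rps27 stands out in blue in plus-dox 2 and off-dox 4, and no group has a color of its own.

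The first comparison, plus-dox against no-dox, sets tumors of mice given dox to switch on the transgene beside tumors of mice never given it. The level of Trp53, as described above, did not show the switch in these libraries. All 12 tumors carry the transgene, so effects of mutant p53 and of dox itself cannot be told apart. None of the 84 genes was called in edgeR's quasi-likelihood test, where a call needs a Benjamini-Hochberg adjusted p under 0.1 over 17561 genes and a change over 1.5-fold, beside 0% of all genes tested. At an unadjusted p under 0.05 there was 1 gene, Rpl7l1, against 13.7% of all genes tested, and DESeq2 called 0 of the 84, beside 0.729% of all genes tested (128 of 17561). The median log2 fold change was −0.05, with 22 genes above 0 and 62 below, beside −0.03 for 12694 genes averaging over 1 RPKM, and with GC content and exonic length removed the split was 63 above and 21 below. For no gene did the plus-dox and no-dox tumors fail to overlap, beside 8.86% of all genes tested. For 77 of 84 genes, the 95% interval of the difference lay inside a 1.5-fold change in either direction, so that for them larger changes lie outside the interval.

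Rplp0, the base of the ribosomal stalk that calls in translation factors, had the lowest log2 fold change of this comparison. It measured 2353, 1996, 2515 and 2156 RPKM in the no-dox tumors and 2142, 1821, 1686 and 1654 in plus-dox. Only plus-dox 1 reached into the no-dox range. The log2 fold change was −0.30 ± 0.16 (SE, n = 4 and 4, 95% interval −0.65 to 0.06, edgeR adjusted p = 0.42). Apart from Rpl3l, described below, Rpl38, a large subunit protein known for the translation of Hox messages, lay at the other end. Its levels were 638, 535, 683 and 654 RPKM in no-dox and 748, 652, 825 and 600 in plus-dox tumors, which overlap. Its log2 fold change was 0.18 ± 0.17 (SE, interval −0.18 to 0.54, edgeR adjusted p = 0.61).

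In the second comparison, off-dox against no-dox, 3 days had passed without dox. Again 0 of the 84 genes were called by edgeR, beside 1.34% of all genes tested (235 of 17561), and 0 by DESeq2, beside 3.5% of all genes (615). Without the limit on fold, 1 of the 84, Rpl7l1, had an adjusted p under 0.1, against 3.46% of all genes, and 3 had an unadjusted p under 0.05, against 20.4%. The median log2 fold change was −0.02, with 37 genes above 0 and 47 below, beside −0.04 for genes with a mean RPKM over 1. With GC content and exonic length removed, the split was 53 above and 31 below. An unadjusted p under 0.05 was held by 8 of the 84 genes in that fit, by 8 with DESeq2 and by 1 with GC content alone removed. The shares over all genes were not counted for these fits. The intervals of 69 genes lay inside a 1.5-fold change. Groups did not overlap in log2 CPM for 3 genes, beside 11.5% of all genes tested. They were Rpl39 with off-dox higher, beside 5.85% of all genes, and Rpl7l1 and Rps2 with off-dox lower, beside 5.69%.

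**Figure D3:**
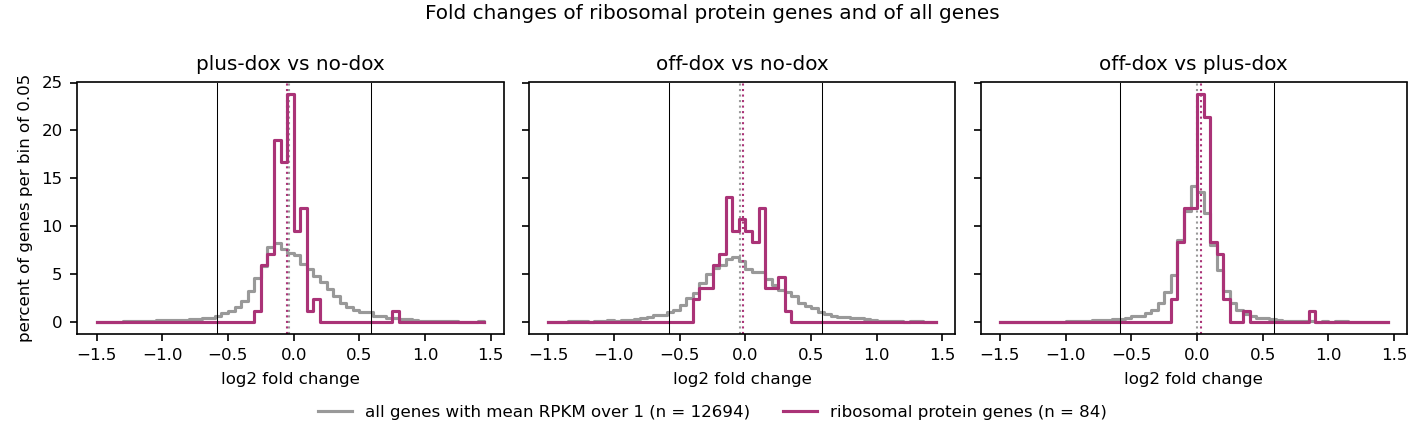
Distribution of log2 fold changes (percent of genes per bin of 0.05) of the 84 ribosomal protein genes (purple) and of 12694 genes with a mean RPKM over 1 (gray) in the 3 comparisons, with dotted lines at the medians and black lines at a 1.5-fold change. The purple curves stay inside the black lines but for Rpl3l, at 0.80, 1.66 (beyond the axis) and 0.86, and their medians of −0.05, −0.02 and 0.03 lie near those of the gray curves.

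Rpl7l1, the paralog of the large subunit protein Rpl7, came closest to a call. Its levels were 46.9, 44.8, 46.7 and 37.2 RPKM in no-dox tumors, 42.0, 37.9, 32.1 and 38.1 in plus-dox and 35.6, 32.1, 33.4 and 34.3 in off-dox. All off-dox tumors lay below all no-dox tumors, while plus-dox overlapped with both. The log2 fold change of off-dox against no-dox was −0.34 ± 0.09 (SE, n = 4 and 4, interval −0.55 to −0.14, edgeR adjusted p = 0.097), which is under 1.5-fold. This adjusted p stayed under 0.1 in 7 of 25 alternative fits and ran from 0.020 with DESeq2 to 1.0 with the share of mapped reads on genes as a covariate. Its parent Rpl7 had 1622, 1586, 1813 and 1624 RPKM in no-dox and 1561, 1256, 1309 and 1263 in off-dox tumors. In RPKM these values of Rpl7 do not overlap, in log2 CPM they do, and the log2 fold change was −0.28 ± 0.12 (SE, interval −0.54 to −0.01, edgeR adjusted p = 0.23).

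Rps2, a small subunit protein near the entry of the message into the ribosome, measured 1514, 1455, 1491 and 1353 RPKM in no-dox tumors, 1355, 1401, 1235 and 1107 in plus-dox and 1309, 893, 1273 and 1205 in off-dox. All off-dox tumors were below all no-dox tumors, and off-dox 2 was lowest. Off-dox against no-dox gave a log2 fold change of −0.28 ± 0.14 (SE, interval −0.59 to 0.02, edgeR adjusted p = 0.27). On the other side stood Rpl39, a small X-linked protein at the exit tunnel of the large subunit, with 1281, 1096, 1358 and 1304 RPKM in no-dox, 1389, 1301, 1494 and 1162 in plus-dox and 1441, 1453, 1753 and 1330 in off-dox tumors. In RPKM, off-dox 4 lay below no-dox 3, so the separation holds on the log2 CPM scale only. For Rpl39, the log2 fold change was 0.27 ± 0.13 (SE, interval −0.02 to 0.56, edgeR adjusted p = 0.27).

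The third comparison, off-dox against plus-dox, asks whether 3 days without dox moved the class back. No gene of the 84 was called, had an adjusted p under 0.1 in edgeR or had an unadjusted p under 0.05, beside 0%, 0% and 3.06% of all genes tested, and DESeq2 called 0 as well, beside 0.0342% of all genes (6). No gene had groups that did not overlap, beside 1.4% of all genes. The median log2 fold change was 0.03, with 55 genes above 0 and 29 below, and with GC content and exonic length removed the split was 51 above and 33 below. The lowest was Rpl23, a large subunit protein that can bind Mdm2, with 632, 637, 655 and 551 RPKM in plus-dox and 632, 475, 543 and 546 in off-dox tumors. Its log2 fold change was −0.16 ± 0.12 (SE, interval −0.43 to 0.11, edgeR adjusted p = 1). The intervals of 78 of the 84 genes lay inside a 1.5-fold change. Without plus-dox 2 and off-dox 4, 0 of the 84 genes were called in all 3 comparisons as well. Among all genes, 0 were then called in plus-dox against no-dox, 471 in off-dox against no-dox and 0 in off-dox against plus-dox.

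**Figure D4:**
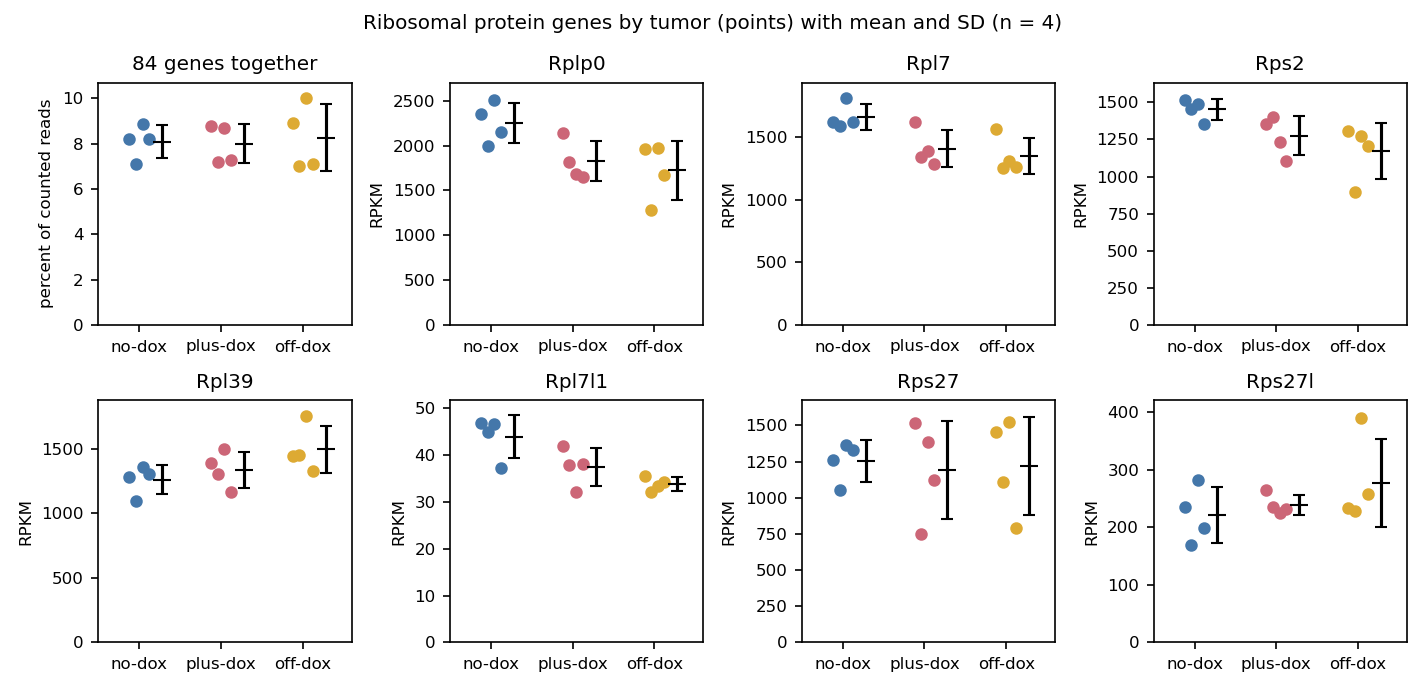
Share of counted reads on the 84 genes together (percent) and RPKM of 7 ribosomal protein genes, with 1 point per tumor and the mean and SD of 4 tumors beside each group. The shares overlap fully, and Rps27 has its lowest points in plus-dox 2 (747 RPKM) and off-dox 4 (791 RPKM). In RPKM, Rplp0, Rpl7, Rps2 and Rpl7l1 are lower in all off-dox than in all no-dox tumors. In log2 CPM, only Rps2 and Rpl7l1 of these genes are, beside 5.69% of all genes tested.

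By role, the P stalk (Rplp0, Rplp1 and Rplp2) had 3 of 3 log2 fold changes below 0 in plus-dox and in off-dox against no-dox, with medians of −0.11 and −0.12, and none was called. Rplp1 had 2296, 1592, 2164 and 2374 RPKM in no-dox, 2092, 2056, 1920 and 1861 in plus-dox and 2018, 1415, 2386 and 1797 in off-dox tumors, with the lowest and the highest of the 12 values both in off-dox. Rpsa, which also serves as a laminin receptor at the cell surface, lay at 1151 ± 224, 1047 ± 56.6 and 1028 ± 225 RPKM (SD, n = 4). Rps6, the substrate of the kinase that mTORC1 switches on, lay at 889 ± 71.4, 860 ± 101 and 907.5 ± 109 RPKM in no-dox, plus-dox and off-dox. Both differed between groups by less than the spread within them.

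Of the 10 ribosomal proteins listed as binding Mdm2, 0 were called in any comparison, and their median log2 fold changes were −0.08, −0.02 and 0.06. Rpl5 had 1592, 1332, 1929 and 1697 RPKM in no-dox, 1793, 1254, 1777 and 1442 in plus-dox and 1776, 1550, 1883 and 1361 in off-dox tumors. Its partner Rpl11 had 1321, 1201, 1469 and 1218 RPKM, 1405, 1079, 1187 and 1014, and 1290, 898, 1230 and 1035 in the same order. Both overlapped in all 3 groups, with log2 fold changes of off-dox against no-dox of 0.03 ± 0.17 for Rpl5 and −0.20 ± 0.15 for Rpl11 (SE, edgeR adjusted p = 0.95 and 0.45). Mdm2 itself lay at 27.2 ± 5.58, 26.1 ± 4.42 and 27.3 ± 5.99 RPKM (SD, n = 4), which is within the spread of the groups.

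Rps27l, of the same list, had 235.5, 170.0, 281 and 199 RPKM in no-dox, 264, 236, 225 and 231 in plus-dox and 233, 228, 390 and 258 in off-dox tumors. Off-dox 3 was highest, the groups overlapped, and the log2 fold change of off-dox against no-dox was 0.35 ± 0.19 (SE, interval −0.07 to 0.76, edgeR adjusted p = 0.32). Its parent Rps27 varied most among the genes that are no paralogs, with 1264, 1051, 1367 and 1333 RPKM in no-dox, 1516, 747, 1386 and 1123 in plus-dox and 1454, 1108, 1520 and 791 in off-dox. The 2 lowest values belong to plus-dox 2 and off-dox 4, the tumors that stood apart over whole profiles. Rps27l accordingly made up 24.0% and 24.6% of the pair's summed RPKM in these 2 tumors and 13.0% to 20.4% in the other 10. The SD of Rps27 within groups was 0.37 on the log2 CPM scale, against a median of 0.23 over the 84 genes, 0.11 for Rpl21, the lowest, and a median of 0.20 over 1158 other genes of like abundance.

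The balance between paralog and parent differed from pair to pair. In summed RPKM, Rpl36al took 37.6% to 45.7% beside Rpl36a, Rpl22l1 21.6% to 35.0% beside Rpl22, and Rpl7l1 2.23% to 2.88% beside Rpl7. Rpl39l took 0.24% to 0.83% beside Rpl39, and Rps4y2 0.30% to 0.73% beside Rps4x. For Rpl36al the 2 lowest shares, 38.7% and 37.6%, fell in plus-dox 2 and off-dox 4. The share of a paralog was compared between groups in 21 exact permutation tests, 2-sided, of which the smallest adjusted p was 0.95, with 0.029 as the smallest unadjusted p that 4 against 4 tumors can give.

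Rpl3l, a paralog of Rpl3 found in heart and skeletal muscle, varied most of the 84 genes. It had 1.42, 0.54, 0.54 and 0.19 RPKM in no-dox, 0.74, 2.08, 0.82 and 0.93 in plus-dox and 0.28, 2.58, 5.26 and 0.24 in off-dox tumors, from 11 to 216 counts. All 3 groups overlapped, and off-dox held the highest value and the widest range. The log2 fold change of off-dox against no-dox was 1.66 ± 0.89 (SE, interval −0.27 to 3.60, edgeR adjusted p = 0.31), and Rpl3, its parent, lay at 1214 ± 119, 1062 ± 93.7 and 1006 ± 130 RPKM (SD, n = 4). Skeletal muscle markers moved with Rpl3l: the 8 markers of the list, such as Acta1 and Ckm, summed to 186, 60.9, 107 and 10.7 RPKM in no-dox, 167, 428, 134 and 155 in plus-dox and 136, 712, 1188 and 11.4 in off-dox tumors. Over the 12 tumors, Pearson's r was 0.91 (permutation p = 3e-05, adjusted p = 0.00021 over 7 paralogs) and Spearman's rho was 0.93 (permutation p = 3e-05), and r was 0.91 without no-dox 4 and off-dox 4. The order of the 4 tumors was the same for Rpl3l and the markers within no-dox and within off-dox, but not within plus-dox. For the other 6 paralogs the adjusted permutation p was 0.32 or more. The part of host muscle in the Rpl3l values was not tested beyond this relation.

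**Figure D5:**
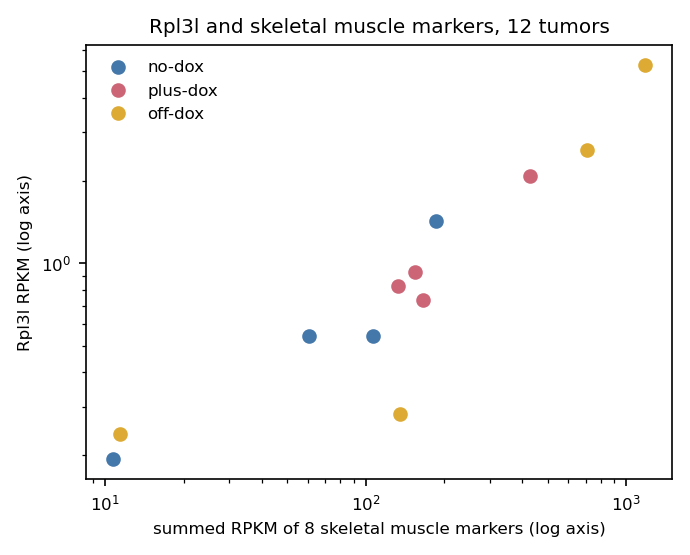
Rpl3l RPKM against the summed RPKM of 8 skeletal muscle markers (both on log axes), with 1 point per tumor and groups by color. The 12 points climb from no-dox 4 and off-dox 4 near 11 RPKM of markers to off-dox 3 at 1188 RPKM, and each group is spread along the line.

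Other genes of the pathway were counted by lists. Of 20 measured genes that carry TOP tracts but are no ribosomal proteins, 0 were called in any comparison, with medians of −0.10, −0.09 and 0.002 for plus-dox against no-dox, off-dox against no-dox and off-dox against plus-dox. The most abundant of them, Eef1a1, which brings aminoacyl-tRNA to the ribosome, had 6806, 5097, 7369 and 7030 RPKM in no-dox, 5976, 5101, 4891 and 4970 in plus-dox and 5311, 3829, 4795 and 5227 in off-dox tumors. Its groups overlapped, and the log2 fold change of off-dox against no-dox was −0.43 ± 0.18 (SE, edgeR adjusted p = 0.21). Tpt1 and Gnb2l1, the receptor for activated C kinase on the small subunit, had log2 fold changes between −0.14 and −0.06 in both comparisons with no-dox. Fau was not called either, with a log2 fold change of off-dox against no-dox of −0.08.

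Among 47 measured genes of ribosome assembly, 0 were called, and the medians were −0.12, −0.13 and −0.03. Beneath the fold limit, Rrs1 and Eif6 had an adjusted p under 0.1 in off-dox against no-dox, with log2 fold changes of −0.43 and −0.44 (edgeR adjusted p = 0.079 and 0.090), both named after their values were seen, which are 2 of 47 genes beside 3.46% of all genes tested. Npm1, the abundant nucleolar chaperone, lay at 404 ± 17.2, 385 ± 9.94 and 405 ± 21.2 RPKM (SD, n = 4). Of 13 regulators such as Rheb and Eif4ebp1, 0 were called. Among these, 5 had an unadjusted p under 0.05 in off-dox against no-dox, 4 of them higher, beside 20.4% of all genes tested. The gene Tsc1, an inhibitor of mTORC1 signaling named after its values were seen, had a log2 fold change of 0.37 (edgeR adjusted p = 0.090). It was the 1 of the 13 with an adjusted p under 0.1, beside 3.46% of all genes tested. It was also the 1 of the 13 with all off-dox above all no-dox tumors in log2 CPM, beside 5.85% of all genes tested. The 76 mitochondrial ribosomal protein genes, whose products form a separate ribosome, again had 0 calls in plus-dox against no-dox. Of their log2 fold changes, 1 lay above 0 and 75 below, with a median of −0.20, beside −0.03 for genes with a mean RPKM over 1. No correction for GC content or length was applied to this list. For 8 of the 76 genes the groups did not overlap, beside 8.86% of all genes tested. In off-dox against no-dox, 15 of the 76 were lower in all off-dox than in all no-dox tumors, beside 5.69% of all genes, and 3 had an adjusted p under 0.1, beside 3.46%. The cytosolic and the mitochondrial sets were not tested against each other.

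Properties of the messages were set beside the fold changes as a description. Over 83 genes, Spearman's rho between log2 fold change and GC content was −0.13, −0.30 and −0.40 in the 3 comparisons, beside 0.04, −0.07 and −0.22 over all genes with a mean RPKM over 0.25. With exonic length, rho was −0.28, −0.17 and −0.04 over the 84 genes, beside 0.27, 0.28 and 0.11 over all genes with a mean RPKM over 0.25. In off-dox against plus-dox, 17 of the 20 genes lowest in GC were above 0, with a median log2 fold change of 0.08, and 8 of the 20 highest, with a median of −0.04. The tumor off-dox 2 carried the steepest relation, with a rho of −0.51 between GC and deviation over the 83 genes. Genes with and without a TOP tract at the annotated start had medians of −0.002 and −0.07 in plus-dox, 0.05 and −0.06 in off-dox against no-dox and 0.05 and 0.03 in off-dox against plus-dox. Fits with GC content and exonic length removed gave the splits printed with each comparison above. The part of these properties and of library preparation in the values here was not tested beyond those fits.

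Ribosomal protein genes have many processed copies in the genome, and how the authors treated reads with several mapping positions is not given. Of 83 genes with a transcript in GENCODE vM1, 51 had more than 50% of their 50-base stretches, the length of a read, copied letter for letter elsewhere in mm9. The share was 99.7% for Rps27, 98.1% for Rps12 and 0% for Rpl3l, with a median of 60.8%. No gene shared such a stretch with the spliced transcripts of another of these 83 genes. Copies inside the introns of another gene of the class were not counted apart. Levels of genes rich in copies are uncertain. Their median level was 1151 RPKM and that of the others 849 RPKM, and the part of the copies in these levels was not tested.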

How the data were processed

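RNA was sequenced from 12 tumors as 50-bp single-end reads of unstranded poly(A) libraries. The authors mapped reads to mm9 (TopHat 1.4.1, with Bowtie 0.12.8 in the submitters' notes) and counted them over unambiguous exonic spans per RefSeq gene. The deposited expected counts are base-wise coverage in reads, not normalized and not all whole, and the deposited RPKM values are per exonic kilobase and total mapped reads. The authors called genes with DESeq2, and their limits were kept: adjusted p under 0.1, over 1.5-fold, mean RPKM over 0.25 and length over 250 bp.

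Counts were rounded, genes with at least 10 summed counts were kept, and all 12 tumors were fitted together with edgeR 4.0.16 (TMM, quasi-likelihood test, R 4.3.3) with Benjamini-Hochberg adjustment over 17561 genes. Scripts were tested on simulated data. Log2 CPM used a prior count of 2. Single values were compared by exact permutation tests and correlations by 100000 permutations. Totals of mapped reads were recovered from count, RPKM and length. Starts and 50-base stretches were read from NCBIM37, the build of the files. The members and gene lists were chosen with earlier results of these data known. Named are the 5 genes at each end of each comparison, the 5 highest and lowest by mean RPKM, the 5 most variable, those with an adjusted p under 0.1, paralogs with their parents, Rplp0, Rplp1, Rplp2, Rpsa, Rps6 and Mdm2 binders, 38 genes in all, of which those the results turn on are printed, with the 3 most abundant genes of each list, Trp53 and Mdm2. Rps2, Rpl21 and the genes whose starts are shown were added after their values were seen. Some items are not reported here. Alternatives were DESeq2 1.42.0, other scalings, filters and samples, covariates and a replicate block, and, added after seeing the data, corrections for GC content and length. Same-numbered tumors had a mean r of −0.088 over 12 pairs, from −0.45 to 0.57, beside a mean of 0.043 over 36 pairs of different numbers. Numbers were taken as names only, and whether some numbers share a batch was not tested. Replicate libraries differed well beyond sampling noise. Intervals cover the spread between these tumors, which come from 1 line.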

Additional observations from a re-analysis of the deposited data

Results flagged for a closer look

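Of 144 groups of 4 tumors examined, 5 held a tumor that lay farther from the rest than Dixon's 95% critical value for the gap over the range of 4 values. Chance alone flags about 1 in 20 groups, and 3.47% were seen here. Rpl22l1 stood at 101 RPKM in plus-dox 1, with the other 3 plus-dox tumors between 80.4 and 82.9. Rpl3l stood at 2.08 RPKM in plus-dox 2, against 0.74 to 0.93, in the plus-dox tumor with the most skeletal muscle marker reads. Rpl7 stood at 1813 RPKM in no-dox 3, against 1586 to 1624. Rps6, at 783 RPKM against 910 to 932, and Rpsa, at 818 RPKM against 1237 to 1301, were both low in no-dox 2, the no-dox tumor with the lowest share of ribosomal protein reads.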

How the results depend on the processing

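No ribosomal protein gene was called in any of 81 counts, from the main fit or an alternative in 1 of the 3 comparisons. They cover each scaling, filter, tool, threshold and set of tumors used, and the stricter limit on adjusted p could not add a call. In plus-dox against no-dox and in off-dox against plus-dox, edgeR called 0 of all genes in the main fit. Its alternatives there called at most 3 and 1 of all genes, so the counts of 0 say little about the class. The 2850 alternative fold changes of 38 named genes made no call, and 179 had another sign than the reported value. Median log2 fold changes of the class stayed within −0.06 to 0.07 (plus-dox against no-dox), −0.04 to 0.09 (off-dox against no-dox) and 0.01 to 0.06 (off-dox against plus-dox) over the other settings. With 1 tumor left out, they ran from −0.10 to 0.01, from −0.10 to 0.05 and from −0.05 to 0.11, so the sign of each median rested on single tumors. Counts of genes whose groups did not overlap ran from 0 to 5, 2 to 8 and 0 to 2, the 8 being reached without no-dox 2 and without off-dox 1. Without plus-dox 2 and off-dox 4, the counts were 1 (Rps2), 3 and 1 (Rpl4). With GC content and length removed, the count was 2 (Rpl22l1 and Rps27l) in plus-dox against no-dox. The main fit gave 0, 3 and 0, beside 8.86%, 11.5% and 1.4% of all genes tested. Smaller groups fail to overlap more readily, and the share over all genes was not counted for these alternatives. Shares of counted reads with 1 tumor left out ran from 7.83% to 8.42% in no-dox, 7.73% to 8.26% in plus-dox and 7.68% to 8.68% in off-dox, and over mapped reads the no-dox and plus-dox shares were 7.20% and 6.78%. Calls among ribosome assembly genes in off-dox against no-dox ran from 0 to 2, the 2 (Polr1c and Bms1) without off-dox 1. With the replicate block, 0 ribosomal protein genes and 0 of all genes were called. Calls among all genes in off-dox against no-dox moved from 235 to between 0 and 789 without 1 tumor, to 3 with the 8 tumors of the pair alone and to 615 with DESeq2 and 396 with its moderated fold changes. The cause was not tested. The 4 tumors of each group limit what can be seen: the intervals of 15 genes in off-dox against no-dox reach past a 1.5-fold change.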
